A study of Mus musculus with 48 samples.

Results

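The genes described here drive the cell division cycle and copy the genome, and they were chosen by symbol: 44 genes were named, and a probe set of the array was taken as a member when the platform's annotation gave it 1 of these symbols and no other. Of the 44 genes, 41 had such a probe set, out of 8251 genes named on the array. Ccnb1 and Bub1b had no probe set under their own symbol in the probe table used here, and Tyms is listed there only on probe sets that carry several symbols, so no value is given for these 3. The 41 genes were read by 57 probe sets, and 14 genes had more than 1. Where a gene had several, the one whose signal averaged highest across the 48 arrays stands for it here as its main probe set. The remaining ones are given for some of the genes and comparisons in which they differ.

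RNA of spleen, liver, heart and lung was measured on Affymetrix MG-U74Av2 arrays, 1 array a sample, in the inbred mouse strains A/J and C57BL/6J at 2 times that the labels call time 1 and time 2 without saying what they are. The 16 groups are A/J and C57BL/6J mice in each of the 4 tissues at each of the 2 times, with 3 arrays each. All mice were untreated as far as the labels say, male littermates aged 3 months, and neither strain is given any engineered allele or agent. The labels do not say whether tissues of 1 mouse were used together or how many litters there were, so the p-values measure the spread between these samples. All values are on the log2 scale as deposited, and a difference of 1 is a 2-fold difference.

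Dividing cells express these genes in a set order. D cyclins with Cdk4 open the way into the cycle, E2F factors and cyclin E with Cdk2 bring the cell into S phase, the MCM helicase loaded by Cdc6 opens the origins, and polymerases, ligase and nucleotide enzymes make the new DNA. Cyclins A and B with Cdk1, the mitotic kinases and the spindle checkpoint then carry the cell through mitosis. In adult mice most cells of liver, heart and lung do not divide, while the spleen holds dividing lymphocytes and, in the red pulp of rodents, dividing precursors of blood cells.

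Marker genes separated the tissues as labelled. B cell markers averaged 11.93 to 12.62 in the spleens against 8.74 to 10.25 elsewhere, and hepatocyte, cardiomyocyte and lung epithelium markers were likewise higher on every array of their own tissue. Some spleens carried transcripts of other organs. The mean of 6 exocrine pancreas markers was 12.25 to 13.14 in 5 spleens (A/J time 1 replicates 1 and 3, C57BL/6J time 1 replicate 2, C57BL/6J time 2 replicates 1 and 3), against 9.29 to 10.11 in the other 7. Alb, serum albumin made by hepatocytes, was 10.31 to 13.27 in 4 spleens, against 8.42 to 8.92 in the other 8, and those 4 were all 3 A/J spleens of time 2 and C57BL/6J time 2 replicate 3. Other tissues carried such transcripts too. In C57BL/6J livers of time 2 the pancreas mean ran from 9.23 to 13.01. Alb in lungs of time 1 was 12.81 to 13.39 in A/J and 10.05 to 12.47 in C57BL/6J. At time 2 it was 8.27 to 9.73 and 8.58 to 9.44. Lung epithelium markers averaged 10.88 to 11.82 in C57BL/6J hearts of time 1, against 9.68 to 10.96 at time 2. Outside spleen, such arrays were left out only 1 at a time. Scan file names put spleen at time 1, heart at time 1, liver with lung at time 1, and all tissues at time 2 into 4 array sets. Strains are therefore compared within an array set, and time and array set cannot be told apart within a tissue.

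In spleen, the cell cycle genes were higher in A/J than in C57BL/6J. Of 41 members, 30 were called higher in A/J (adjusted p below 0.05 in limma over all 12422 probe sets) and 2 lower, where 6.05% of all probe sets were called higher and 6.67% lower. The median difference of the 41 members, A/J minus C57BL/6J, was 0.68, and that of all probe sets was -0.005. The largest differences belonged to genes of origin licensing, nucleotide supply and mitosis, Cdc6, Rrm2, Birc5, Cks2, Ccnb2 and Top2a, at 1.29 to 1.66. The 2 genes called lower in A/J were the D cyclins Ccnd1 and Ccnd2. In bulk spleen, more dividing cells and more of these transcripts per dividing cell cannot be told apart.

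**Figure D1:**
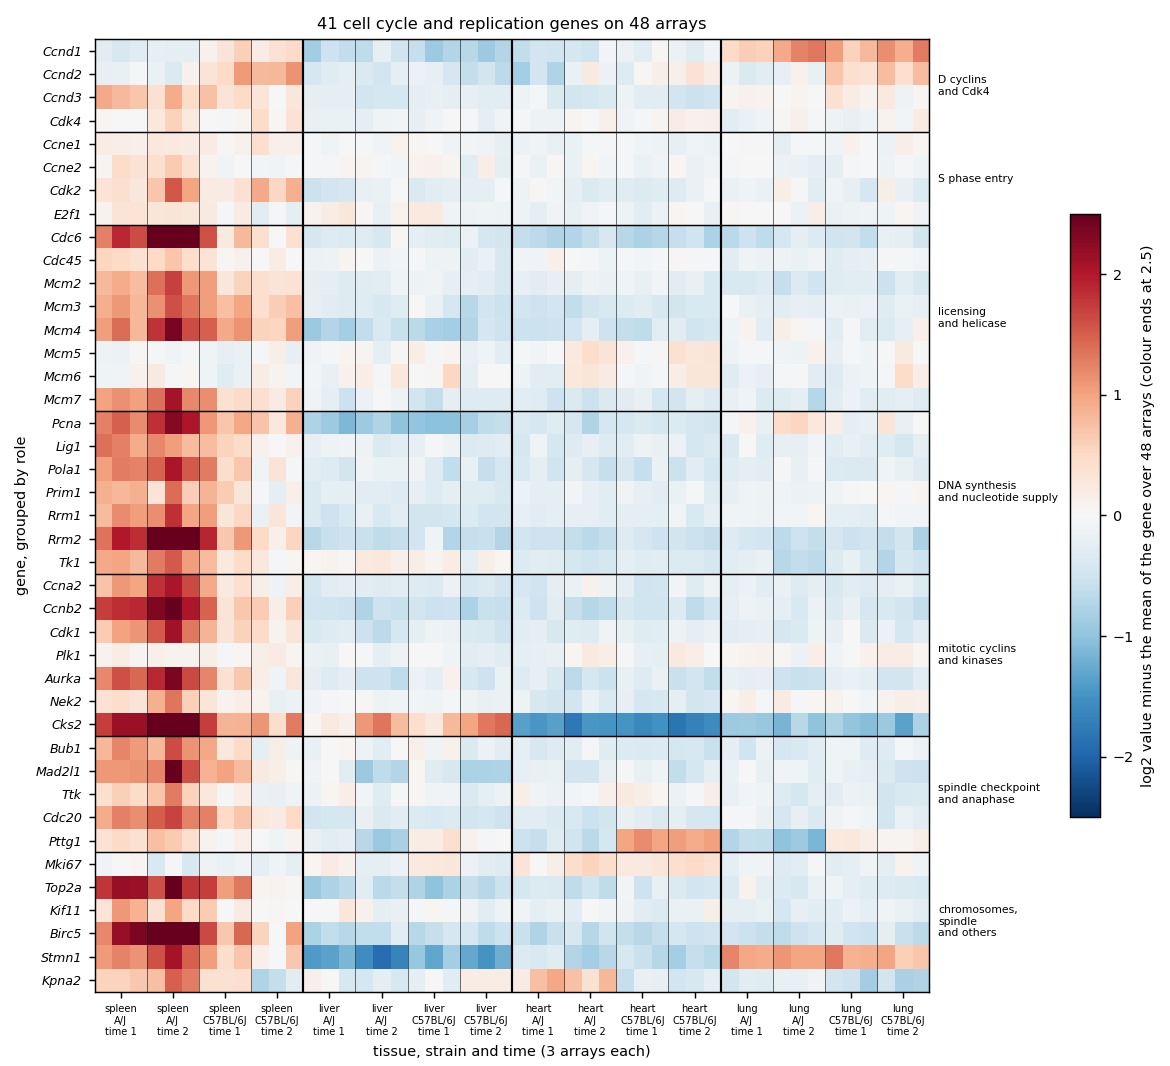
Log2 values of the main probe set of each of the 41 genes (rows, grouped by role) on the 48 arrays (columns, 3 per group), each minus the mean of that gene over all arrays; colour ends at 2.5 either way. The red block lies in the A/J spleens, the C57BL/6J spleens are paler, and Ccnd1 in lung, Stmn1 in lung, Cks2 in liver and Pttg1 in C57BL/6J heart stand out from the rows around them.

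The genes that license and unwind origins split between called and uncalled members. Of 8, 4 were called higher in A/J spleen (Cdc6, Cdc45, Mcm2 and Mcm7) and none lower, with a median of 0.48. Cdc6, which loads the MCM helicase, read 9.52, 10.16 and 9.89 at time 1 and 10.92, 11.49 and 10.98 at time 2 in A/J spleens. In C57BL/6J spleens Cdc6 read 9.85, 8.50 and 9.08 at time 1 and 8.66, 8.25 and 8.65 at time 2. The strains overlapped at time 1 through 1 C57BL/6J spleen and lay far apart at time 2. Over both times Cdc6 was 3.16-fold higher in A/J (log2 difference 1.66, SE 0.32, adjusted p = 0.00391). Cdc45, which joins the working helicase, differed by 0.39 (SE 0.07), and the helicase subunits Mcm2 and Mcm7 by 0.62 (SE 0.16) and 0.77 (SE 0.19). The subunits Mcm3 (0.39, SE 0.14), Mcm4 (0.56, SE 0.23), Mcm5 (0.03, SE 0.06) and Mcm6 (0.08, SE 0.07) did not pass the test. Mcm6 read 6.61 to 7.13 over the spleens, within the range of 6.58 to 7.42 of the other tissues.

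All 7 measured genes of DNA synthesis and nucleotide supply were called higher in A/J spleen, with differences of 0.56 to 1.59 and a median of 0.84. Rrm2, the subunit of ribonucleotide reductase whose level follows S phase, read 8.66, 9.30 and 9.14 at time 1 and 9.90, 10.86 and 10.32 at time 2 in A/J spleens, against 9.21, 7.98 and 8.38 at time 1 and 7.80, 7.42 and 7.84 at time 2 in C57BL/6J spleens. As with Cdc6, C57BL/6J time 1 replicate 1 reached into the A/J range, and no array of time 2 did. Rrm2 differed by 1.59 (SE 0.36, adjusted p = 0.00934), 3.01-fold. Pola1, the catalytic subunit of the polymerase that starts new strands, differed by 1.00 (SE 0.22). Pcna, the sliding clamp of the replicating polymerases, differed by 0.91 (SE 0.18), and Rrm1, the large reductase subunit, by 0.84 (SE 0.20). Tk1, which salvages thymidine, differed by 0.81 (SE 0.15), Lig1, which joins Okazaki fragments, by 0.76 (SE 0.10), and Prim1, the primase, by 0.56 (SE 0.17).

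Of the 7 mitotic cyclins and kinases, 6 were called higher in A/J spleen and Plk1 was not, with a median of 1.08. Ccnb2, a B cyclin that activates Cdk1, read 11.96, 12.08 and 12.12 at time 1 and 12.57, 12.86 and 12.26 at time 2 in A/J spleens, against 11.71, 10.56 and 10.91 at time 1 and 10.88, 10.40 and 10.84 at time 2 in C57BL/6J spleens. No C57BL/6J array reached the lowest A/J array at either time. The Ccnb2 difference was 1.42 (SE 0.20, adjusted p = 0.000577), 2.68-fold. Cks2, a small subunit of Cdk complexes, read 10.34, 10.75 and 10.75 at time 1 and 11.25, 11.97 and 11.60 at time 2 in A/J spleens. In C57BL/6J spleens it read 10.34, 9.46 and 9.48 at time 1 and 9.71, 9.06 and 9.91 at time 2. The lowest A/J array and the highest C57BL/6J array of Cks2 met at 10.34, and the rest were apart, for a difference of 1.45 (SE 0.24, adjusted p = 0.00154). Aurka, a kinase of the spindle poles, differed by 1.25 (SE 0.22), Ccna2, cyclin A of S phase and early mitosis, by 1.08 (SE 0.22), Cdk1, the kinase of mitotic entry, by 0.85 (SE 0.19), and Nek2, a kinase of the centrosome, by 0.61 (SE 0.15).

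All 5 measured genes of the spindle checkpoint and of anaphase were called higher in A/J spleen. Mad2l1, a checkpoint protein that holds back anaphase, differed by 0.93 (SE 0.25), the checkpoint kinases Bub1 and Ttk by 0.86 (SE 0.18) and 0.68 (SE 0.14), Cdc20, which activates the anaphase-promoting complex, by 0.73 (SE 0.17), and Pttg1, securin, by 0.48 (SE 0.07). Among the 6 genes of chromosomes and spindle, 5 were called higher and Mki67 was not. Birc5, survivin, a part of the chromosomal passenger complex, read 8.07, 9.04 and 9.22 at time 1 and 9.53, 10.04 and 9.62 at time 2 in A/J spleens, against 8.51, 7.53 and 8.29 at time 1 and 7.41, 6.85 and 7.87 at time 2 in C57BL/6J spleens. A/J time 1 replicate 1 was the A/J array below the C57BL/6J maximum. That spleen held pancreas transcripts, as did replicate 3 of the same group, which read 9.22. Birc5 differed by 1.51 (SE 0.32, adjusted p = 0.0069), 2.85-fold. Top2a, the topoisomerase that untangles sister chromatids, read 9.55, 9.94 and 9.91 at time 1 and 9.37, 10.30 and 9.56 at time 2 in A/J spleens. In C57BL/6J spleens Top2a read 9.49, 8.81 and 9.09 at time 1 and 7.83, 7.86 and 7.79 at time 2, so that the C57BL/6J arrays of time 2 lay together well below all others. Top2a differed by 1.29 (SE 0.23, adjusted p = 0.00194). Kpna2, a nuclear import receptor, differed by 0.96 (SE 0.23), Stmn1, which destabilises microtubules, by 0.94 (SE 0.20), and Kif11, the motor that separates spindle poles, by 0.54 (SE 0.14).

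**Figure D2:**
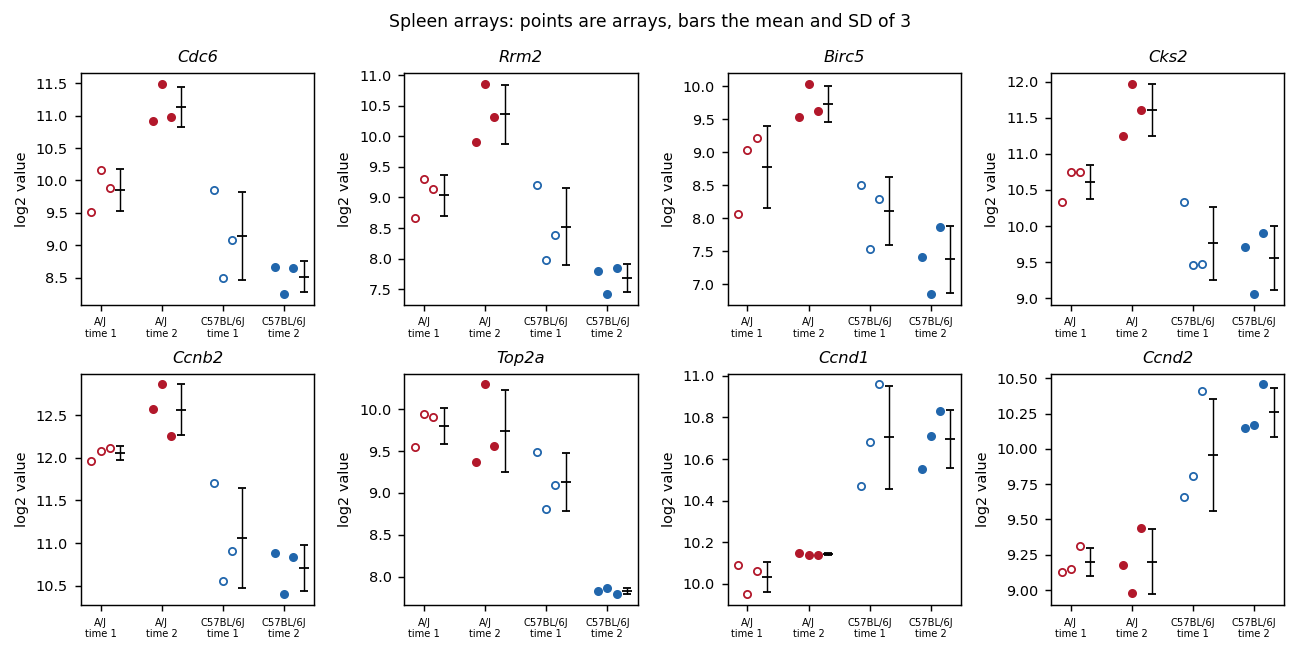
Log2 values of 8 members on the 12 spleen arrays (points), by strain and time, with the mean and SD of 3 beside each group. Cdc6, Rrm2, Birc5, Cks2, Ccnb2 and Top2a are farthest apart between strains at time 2, and Ccnd1 and Ccnd2 are lower in A/J at both times.

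The role groups were not tested against each other. Of the 4 genes of S phase entry, Ccne2 (0.42, SE 0.08) and the transcription factor E2f1 (0.31, SE 0.08) were called higher in A/J, and Cdk2 (0.18, SE 0.12) and Ccne1 (0.03, SE 0.06) were not. Ccnd2, a D cyclin that lymphocytes use, read 9.13, 9.15 and 9.31 at time 1 and 9.18, 8.98 and 9.44 at time 2 in A/J spleens, against 9.66, 9.81 and 10.41 at time 1 and 10.15, 10.17 and 10.46 at time 2 in C57BL/6J spleens. Every A/J array was below every C57BL/6J array, with a difference of -0.91 (SE 0.13, adjusted p = 0.000491). Ccnd1, cyclin D1, read 10.09, 9.95 and 10.06 at time 1 and 10.15, 10.14 and 10.14 at time 2 in A/J spleens, and 10.47, 10.68 and 10.96 at time 1 and 10.55, 10.71 and 10.83 at time 2 in C57BL/6J spleens. These strains did not overlap either, and the difference was -0.61 (SE 0.08, adjusted p = 0.000328). The third D cyclin, Ccnd3, was called in the opposite direction at 0.34 (SE 0.10), and their partner Cdk4 differed by 0.04 (SE 0.08) and was not called.

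The strain difference was larger at time 2. At time 1, 2 members were called higher in A/J (Ccnb2 and Lig1, background 1.14%) and 2 lower (Ccnd1 and Ccnd2, background 1.78%), although 38 of 41 differences were positive and their median was 0.30 against 0.034 over all probe sets. At time 2, 30 were called higher (background 8.24%) and 2 lower (background 7.78%), with a member median of 1.03 against -0.054 over all probe sets. The largest at time 2 were Rrm2 (2.67, SE 0.29), Cdc6 (2.61, SE 0.28), Birc5 (2.35, SE 0.33), Cks2 (2.05, SE 0.26), Top2a (1.92, SE 0.22) and Ccnb2 (1.85, SE 0.24). Without regard to a test, all 3 A/J arrays lay above all 3 C57BL/6J arrays in 32 of 41 members at time 2, where this held for 10.9% of all probe sets, and in 14 members at time 1, where it held for 18.4%. It held at both times over all 12 arrays for 12 members (2.45% of all probe sets), and the reverse order held for Ccnd1 and Ccnd2 (2.5%, with 10.7% at time 1 and 16.4% at time 2). The D cyclins Ccnd1 (-0.67, SE 0.11, and -0.55, SE 0.11) and Ccnd2 (-0.77, SE 0.17, and -1.06, SE 0.17) were lower in A/J at time 1 and at time 2.

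The test of that change itself called few members. The strain by time test called Kpna2 (1.50, SE 0.23, adjusted p = 0.0292) and Ccna2 (1.39, SE 0.24, adjusted p = 0.0416), and none in the other direction, where 0.185% and 0.0242% of all probe sets were called. At an unadjusted p below 0.05 there were 25 of 41 members, and the member median was 0.78 against -0.082 over all probe sets. Kpna2 read 8.42, 8.42 and 8.53 at time 1 and 8.60, 9.35 and 9.13 at time 2 in A/J spleens, against 8.23, 8.24 and 8.27 at time 1 and 7.10, 7.27 and 7.57 at time 2 in C57BL/6J spleens. Kpna2 was called higher at time 2 than at time 1 in A/J spleens and lower in C57BL/6J spleens. Ccna2 read 11.42, 11.79 and 11.70 at time 1 and 12.53, 12.74 and 12.36 at time 2 in A/J spleens, against 11.66, 10.96 and 11.13 at time 1 and 10.86, 10.58 and 10.87 at time 2 in C57BL/6J spleens. Ccna2 was called higher at time 2 in A/J spleens, and its time difference in C57BL/6J spleens did not pass the test (adjusted p = 0.0714 in limma). These 2 calls rest on few arrays: leaving out 1 array at a time gave 0 to 10 called members, with 10 without A/J time 2 replicate 1, 7 without C57BL/6J time 1 replicate 2 or C57BL/6J time 2 replicate 3, and 0 without any 1 of the 3 A/J spleens of time 1, C57BL/6J time 1 replicates 1 or 3, or C57BL/6J time 2 replicate 1.

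**Figure D3:**
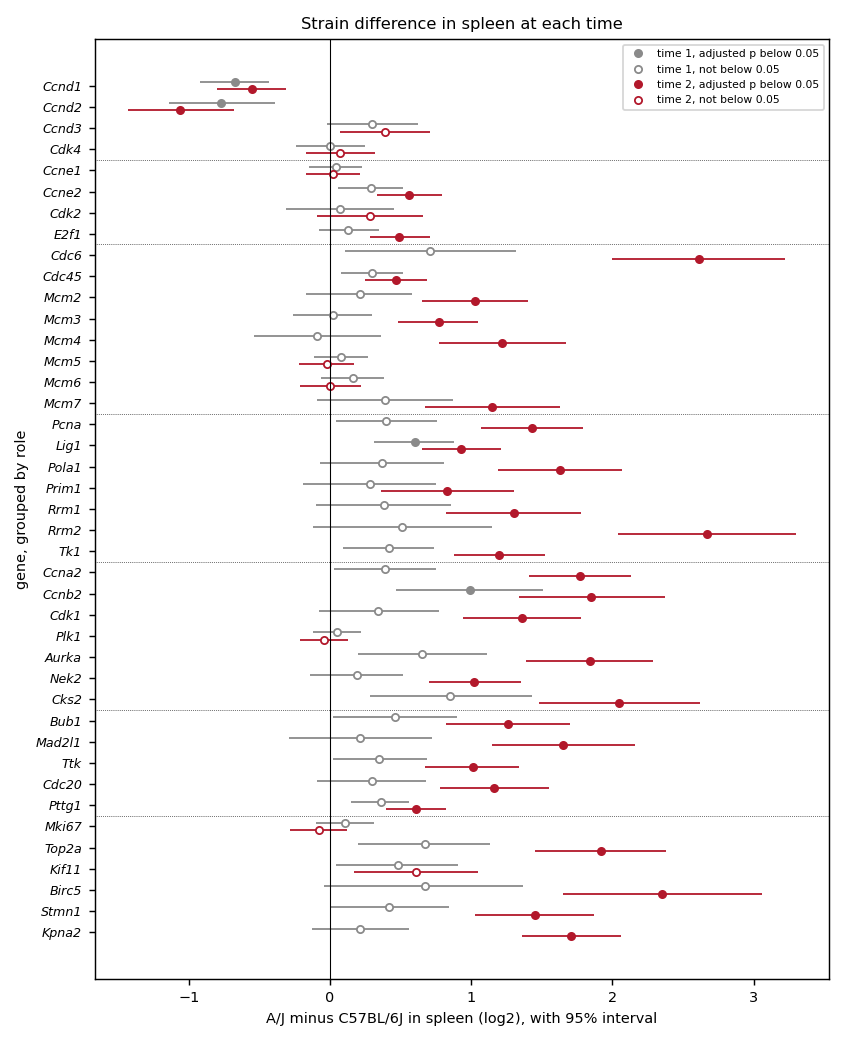
A/J minus C57BL/6J in spleen (log2, with the 95% interval) for each of the 41 genes, at time 1 (grey) and time 2 (red); filled points have an adjusted p below 0.05. Time 2 has 30 filled points to the right of 0 and 2 to the left, and time 1 has 2 and 2.

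Other markers moved with the cell cycle genes across the spleens. Of 15 named genes of erythroid precursors, 11 were measured and 9 were called higher in A/J spleen, with a median of 1.15, among them Klf1 (1.64, SE 0.26) and Gata1 (0.84, SE 0.14), factors that drive red cell formation, named after their values were seen, while Hba-a1 (0.05, SE 0.05) and Epb42 (0.09, SE 0.06) were not called. The mean of these markers was 11.43 to 11.68 at time 1 and 11.95 to 12.17 at time 2 in A/J spleens, against 10.44 to 11.39 at time 1 and 9.76 to 10.22 at time 2 in C57BL/6J spleens. The mean of the 41 members followed the same order of groups, at 9.72 to 9.92 and 10.07 to 10.49 in A/J, against 9.33 to 9.78 and 9.12 to 9.29 in C57BL/6J. C57BL/6J time 1 replicate 1, the spleen of that strain that overlapped A/J for Cdc6 and Rrm2, had the highest erythroid mean of its strain at 11.39. Of 7 markers of neutrophil precursors 4 were called higher in A/J, of 7 macrophage markers 4 were called lower, of 6 B cell markers 3 were called lower, and of 7 T cell markers none was called. Over all probe sets 6.05% were called higher and 6.67% lower. The part of these cells in the members' difference was not tested.

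Transcripts of liver and pancreas also differed between the spleens. At time 2, 5 of 7 hepatocyte markers were called higher in A/J spleens (background 8.24%), Alb by 3.45 (SE 0.42). Without the 5 spleens that held pancreas transcripts, 8 members were called higher in A/J (Aurka, Birc5, Ccnb2, Ccne2, Cks2, Lig1, Pcna and Pttg1) and 2 lower, with 1.52% and 1.36% of all probe sets called in the 7 arrays left. The member median was then 0.73, and all 30 genes called with 12 arrays kept a positive difference. The A/J arrays left were time 1 replicate 2 and the 3 of time 2, which carried Alb. Those left of C57BL/6J were time 1 replicates 1 and 3 and time 2 replicate 2. Without the 4 spleens with Alb, no A/J spleen of time 2 was left, and 2 members were called higher and 2 lower, where 1.39% and 2.12% of all probe sets were called. The member median was then 0.30, against 0.68 with all 12 arrays.

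**Figure D4:**
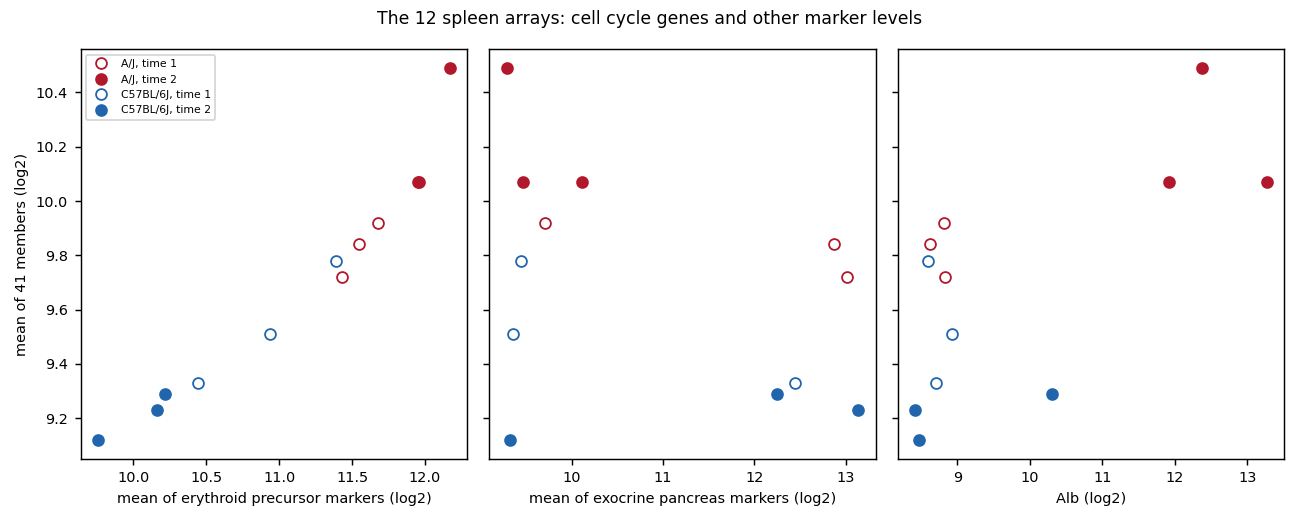
Mean log2 value of the 41 members on each of the 12 spleen arrays against the mean of the erythroid precursor markers (left), the mean of the exocrine pancreas markers (middle) and Alb (right); 2 A/J arrays of time 2 overlap in the left panel. The arrays high in erythroid markers are high in the members, the 5 arrays high in pancreas markers come from both strains, and Alb is high in all 3 A/J arrays of time 2.

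Genes of the same pathway that are no members gave a similar count. Of 52 such genes 45 were measured, and 27 were called higher in A/J spleen and none lower, with a median of 0.44. Those with the smallest p were Cenpa, the histone of centromeres (0.71, SE 0.10), Tubb5, a beta tubulin (0.52, SE 0.07), Anln, a scaffold of the cleavage furrow (1.31, SE 0.21), Cdc25c, the phosphatase that activates Cdk1 (0.88, SE 0.14), Brca1, which acts in DNA repair (0.94, SE 0.15), and Cks1b (0.88, SE 0.15). Genes that restrain the cycle did not fall as a group. Of 17 measured, 5 were higher in A/J and 1 lower, with a median of 0.04: the Cdk4 inhibitors Cdkn2c (0.90, SE 0.13) and Cdkn2d (0.66, SE 0.12), the pocket proteins Rb1 (1.18, SE 0.20) and Rbl1 (0.45, SE 0.13), and Gadd45a (0.85, SE 0.23) were higher, and Gadd45b (-0.35, SE 0.08) was lower.

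Probe sets of 1 gene did not all read alike. Mki67, the proliferation antigen Ki-67, was flat on its main probe set, 161931_r_at, at 0.01 (SE 0.07). Its other probe set, 99457_at, read 10.20, 10.20 and 10.22 at time 1 and 10.21, 10.79 and 10.23 at time 2 in A/J spleens, against 9.87, 8.65 and 9.23 at time 1 and 6.77, 6.83 and 7.05 at time 2 in C57BL/6J spleens. On that probe set Mki67 was 11.5-fold higher in A/J at time 2 (3.53, SE 0.24, adjusted p = 2.04e-06), and its strain by time value was 2.57 (SE 0.34, adjusted p = 0.0164). The 2 probe sets also differ between tissues, since 99457_at was 2.32 to 2.73 higher in spleen than in lung, heart and liver at time 2 and 161931_r_at was -0.69 to -0.01. Mcm5 showed the same split: its main set, 162102_r_at, was 0.08 higher in spleen than in liver, and 100156_at was 2.27 higher (SE 0.08), with a strain difference in spleen of 0.61 (SE 0.15) at time 2. In Affymetrix names the endings r_at and f_at mark probe sets that met fewer design rules or that match a family of sequences. Plk1, the Polo-like kinase of mitosis, was 0.00 (SE 0.06) on its main set, 161292_f_at, -0.03 (SE 0.09) on 101350_g_at and 0.29 (SE 0.12) on 93099_f_at, none of them called. At time 2 the set 93099_f_at was called (0.60, SE 0.13).

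For other genes the main set carried the difference. The further sets of Tk1 (-0.02), Stmn1 (-0.04), Pttg1 (-0.01), Rrm1 (0.08), Lig1 (0.11) and Bub1 (-0.07 and 0.20) were not called for strain in spleen, and that of Ccnd1 was -0.20 and was called at time 2 alone (-0.38, SE 0.10). E2f1 was called on both of its sets, at 0.31 and 0.55. Which of the probe sets of a gene reads its transcript was not tested.

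Promoters of 6 members are shown because their genes were among the members higher in A/J spleen and because they hold the short motifs by which cell cycle genes are commonly grouped. Sequences are from RefSeq on mouse build GRCm38.p6, whose reference strain is C57BL/6J, and give the 250 bases before the annotated start, 5′ to 3′ on the strand of the gene. Capitals mark matches to the E2F motif (TTTCCCGC, TTTGGCGC, TTTCGCGC or TTTGCCGC), the cell cycle genes homology region CHR (TTTGAA) or the CCAAT box that the factor NF-Y binds, on either strand; the motifs were searched separately, and a base may belong to more than 1.
Cdc6, chr11:98907901-98908150, plus strand: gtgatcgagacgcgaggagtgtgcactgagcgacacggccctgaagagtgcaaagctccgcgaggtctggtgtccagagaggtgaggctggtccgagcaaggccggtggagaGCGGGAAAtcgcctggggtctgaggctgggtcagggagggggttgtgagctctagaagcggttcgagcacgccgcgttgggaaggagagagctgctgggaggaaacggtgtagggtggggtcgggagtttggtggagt
Rrm2, chr12:24708004-24708253, plus strand: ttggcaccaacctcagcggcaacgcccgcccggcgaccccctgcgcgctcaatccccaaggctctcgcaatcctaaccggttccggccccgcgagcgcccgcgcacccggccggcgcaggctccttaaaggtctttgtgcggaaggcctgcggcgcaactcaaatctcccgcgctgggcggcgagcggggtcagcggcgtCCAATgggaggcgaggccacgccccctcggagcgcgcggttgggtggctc
Cdk1, chr10:69352913-69353162, minus strand: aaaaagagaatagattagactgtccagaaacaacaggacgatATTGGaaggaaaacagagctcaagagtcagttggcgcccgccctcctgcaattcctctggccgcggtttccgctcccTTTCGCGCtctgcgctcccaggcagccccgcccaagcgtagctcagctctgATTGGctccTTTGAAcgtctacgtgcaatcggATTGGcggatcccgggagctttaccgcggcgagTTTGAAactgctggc
Ccnb2, chr9:70421555-70421804, minus strand: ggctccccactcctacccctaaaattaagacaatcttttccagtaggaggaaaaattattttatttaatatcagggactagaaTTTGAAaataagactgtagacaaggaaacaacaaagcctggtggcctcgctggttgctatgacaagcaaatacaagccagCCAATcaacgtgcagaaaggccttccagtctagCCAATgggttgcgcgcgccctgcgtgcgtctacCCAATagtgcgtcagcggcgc
Top2a, chr11:99024190-99024439, minus strand: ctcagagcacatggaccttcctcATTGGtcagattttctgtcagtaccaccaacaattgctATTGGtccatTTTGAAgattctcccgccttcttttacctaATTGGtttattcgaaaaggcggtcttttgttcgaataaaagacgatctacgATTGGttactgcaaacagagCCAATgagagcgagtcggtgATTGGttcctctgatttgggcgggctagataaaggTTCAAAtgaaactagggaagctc
Cdc20, chr4:118437344-118437593, minus strand: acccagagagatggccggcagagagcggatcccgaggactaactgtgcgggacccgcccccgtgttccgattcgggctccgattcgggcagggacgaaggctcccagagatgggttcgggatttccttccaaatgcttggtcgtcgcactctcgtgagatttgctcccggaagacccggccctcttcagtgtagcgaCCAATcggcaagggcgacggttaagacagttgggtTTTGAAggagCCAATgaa

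Cdc6 held 1 E2F match and no other, and Rrm2 held 1 CCAAT box. Cdk1 held all 3 motifs, with 1 E2F match, 2 CHR matches and 3 CCAAT boxes. Ccnb2 held 1 CHR match and 3 CCAAT boxes, Top2a 2 and 6, and Cdc20 1 and 2. Of the 41 measured members 35 were in the promoter table, and Ccnd1, Ccnd2, Ccne2, Mcm4, Ccna2 and Stmn1 are named only. Among the 35, the E2F motif was found in 7 (Cdk2, Cdc6, Mcm5, Mcm6, Mcm7, Pola1 and Cdk1), where 2.16% of 27025 genes hold it in the same window. CHR was found in 9 of 35 (25.7%), against 18.3% of all genes, and CCAAT in 26 of 35 (74.3%), against 37.5%. By role, the E2F motif was in 4 of 7 licensing and helicase genes, 1 of 7 DNA synthesis genes, 1 of 6 mitotic cyclins and kinases and 1 of 3 genes of S phase entry, and in none of the other roles. CHR was in 4 of 5 genes of chromosomes and spindle, 2 of 6 mitotic cyclins and kinases, 2 of 7 licensing and helicase genes and 1 of 5 spindle checkpoint genes, and in none of the other roles. These are matches of letters, and no binding was measured.

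Across tissues at time 2, when all arrays share 1 array set, the members were highest in spleen. The mean of both strains was highest in spleen for 36 of 41 members, in heart for 4 (Mcm5, Mcm6, Plk1 and Mki67, each on its main set), in lung for Ccnd1, and in liver for none. Against liver, 37 members were called higher in spleen and none lower, where 31.3% and 30.1% of all probe sets were called, with a member median of 0.82 and -0.024 over all probe sets. Against heart, 34 were higher and 2 lower (background 29.8% and 37.3%), with a member median of 0.90. Against lung, 33 were higher and 1 lower (background 29.3% and 23.8%), with a member median of 0.78. The spleen arrays are shared by these 3 comparisons. These counts rest on main probe sets, and some further sets were called lower in spleen. Rrm1 on 161731_at was -0.32, -0.80 and -0.22 against liver, heart and lung. Tk1 on 161150_at was -0.27 and -0.38 against liver and heart, and Lig1 on 162004_i_at was -0.46 against heart. Further sets of Mcm3, Cdk4, Cdk2 and E2f1 were called higher in spleen in all 3, as was Plk1 on 93099_f_at (0.63, 0.48 and 0.86). No detection calls were used here, so that the size of a difference from a tissue near background is uncertain.

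The largest difference was that of Stmn1 against liver (2.52, SE 0.11) and of Cks2 against heart (3.60, SE 0.14) and lung (2.96, SE 0.14). Rrm2, Birc5 and Ccnb2 were among the 6 largest in all 3 comparisons. All values of this paragraph average A/J and C57BL/6J, so a fold need not describe either strain. In spleen at time 2 the strains differed by 2.67 for Rrm2, 2.61 for Cdc6 and 2.35 for Birc5. Rrm2 was 5.02-fold higher in spleen than in liver, 4.94-fold higher than in heart and 5.02-fold higher than in lung (SE 0.11 each on the log2 scale), and it read between 6.51 and 7.19 on every array of those 3 tissues, both times included, with neither strain apart. Birc5 was 4.64-, 4.61- and 4.6-fold higher than in liver, heart and lung (SE 0.12 each on the log2 scale), and read 6.07 to 6.61 outside spleen. Over liver, heart and lung, Cdc6 gave log2 differences of 1.85, 2.16 and 1.88 (SE 0.10 each), and Ccnb2 2.02, 1.96 and 1.76 (SE 0.09 each). Pcna was 2.12 higher in spleen than in liver and 1.80 than in heart (SE 0.11 each), Mcm4 was 1.86 higher than in liver (SE 0.11), and Aurka was 1.51 higher than in lung (SE 0.09). For 32 of 41 members the means of liver, heart and lung lay within 0.5 of each other.

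Members with a level of their own outside spleen were few. Only Cks2, Stmn1, Ccnd1 and Pcna spanned more than 1 over the means of liver, heart and lung at time 2. Cks2 averaged 9.77 in liver, 6.98 in heart and 7.63 in lung, so that spleen exceeded liver by 0.81 (SE 0.14) and heart by 3.60 (SE 0.14), 12.1-fold. Its livers read 8.67, 8.86 and 8.75 at time 1 and 9.70, 9.95 and 9.40 at time 2 in A/J, and 9.04, 8.87 and 9.42 at time 1 and 9.60, 9.93 and 10.05 at time 2 in C57BL/6J, above every heart and lung array in both strains. Stmn1 averaged 11.57 in spleen and 11.47 in lung, a difference of 0.10 (SE 0.11, adjusted p = 0.477), and 9.06 in liver, 2.52 below spleen (SE 0.11). Ccnd1 differed by -1.08 in spleen against lung (SE 0.09), at means of 10.42 and 11.50. The other probe set of Stmn1, 97910_at, did not repeat this, at 0.03 against lung and -0.15 against liver, and that of Ccnd1 gave -0.40 (SE 0.07) against lung.

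Within each strain the spleen stood out by different counts. In A/J 36, 35 and 35 members were higher in spleen than in liver, heart and lung (background 27.9%, 26.4% and 23.1%), with medians of 1.42, 1.40 and 1.35. In C57BL/6J the counts were 27, 25 and 19 (background 28.1%, 25.9% and 21%), with medians of 0.44, 0.46 and 0.26. Top2a, Rrm2, Birc5, Ccnb2, Cdc6, Cdk1 and Pcna were among those called in every comparison in C57BL/6J. In C57BL/6J, Kpna2 was called lower in spleen than in liver (background 20.4%), Pttg1, Mki67 and Mcm5 were lower than in heart (27.5%), and Ccnd1 and Stmn1 were lower than in lung (19.1%). In A/J none was lower than in liver, 2 (Mcm5 and Mki67) were lower than in heart and 1 was lower than in lung (background 31.7%, 34.3% and 20.7%). These calls are on main probe sets. Over both strains, the further sets of Mki67 (99457_at), Mcm5 (100156_at) and Pttg1 (101026_at) were called higher in spleen than in heart, at 2.65, 2.05 and 0.18.

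Outside spleen few members differed between strains. In liver 1 of 41 members was called lower in A/J and none higher (background 2.53% and 1.54%), in heart 2 lower and 1 higher (background 2.91% and 4.57%), and in lung 2 lower and 1 higher (background 2.52% and 2.7%). The member medians were 0.02, -0.02 and -0.01. The strain by tissue test, which sets the strain difference in spleen against the mean of those in liver, heart and lung, called 32 members higher and 2 lower, where 7.77% and 8.89% of all probe sets were called. Its median over members was 0.65 and over all probe sets -0.006. The largest were Cdc6 (1.66, SE 0.15), Rrm2 (1.62, SE 0.15), Birc5 (1.56, SE 0.17), Pttg1 (1.55, SE 0.07), Cks2 (1.48, SE 0.16) and Ccnb2 (1.36, SE 0.13), and the 2 lower were Ccnd1 (-0.55, SE 0.11) and Ccnd2 (-0.54, SE 0.12).

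Pttg1 differed between strains in opposite directions. Securin holds sister chromatids together until anaphase by restraining separase. In spleens it read 11.84, 11.95 and 11.86 at time 1 and 12.23, 12.12 and 11.90 at time 2 in A/J, against 11.56, 11.42 and 11.60 at time 1 and 11.49, 11.36 and 11.56 at time 2 in C57BL/6J. In hearts it read 10.93, 10.90 and 11.15 at time 1 and 10.98, 10.79 and 11.03 at time 2 in A/J, against 12.46, 12.66 and 12.46 at time 1 and 12.52, 12.40 and 12.49 at time 2 in C57BL/6J. The strains did not overlap in either tissue, with A/J above C57BL/6J in spleen and below it in heart. The differences were -1.54 in heart (SE 0.06, adjusted p = 4.31e-10), -0.99 in lung (SE 0.06, adjusted p = 2.54e-07) and -0.66 in liver (SE 0.07, adjusted p = 9.45e-05). They come from probe set 101027_s_at, and the other, 101026_at, which read 5.43 to 5.94 in spleen, gave -0.17, -0.39 and -0.17, called in lung alone.

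Kpna2 and Ccnd2 also differed outside spleen. Kpna2 read 8.06, 8.61 and 8.83 at time 1 and 8.59, 8.23 and 8.69 at time 2 in A/J hearts, against 7.29, 7.68 and 7.65 at time 1 and 7.38, 7.46 and 7.62 at time 2 in C57BL/6J hearts. No arrays overlapped, and the difference was 0.99 (SE 0.12, adjusted p = 0.00012), with 0.40 (SE 0.09) in lung and -0.24 (SE 0.12), not called, in liver. Ccnd2 in lungs read 9.20, 8.98 and 9.08 at time 1 and 9.13, 9.45 and 9.16 at time 2 in A/J, against 10.04, 9.74 and 9.70 at time 1 and 10.12, 9.77 and 10.12 at time 2 in C57BL/6J. The A/J lungs were all below the C57BL/6J lungs, with a difference of -0.75 (SE 0.09, adjusted p = 0.000113). In heart Ccnd2 differed by -0.45 (SE 0.11, adjusted p = 0.0175), a call that was lost without A/J heart time 1 replicates 1 and 3, in which the Gapdh control read over 1 log2 unit more at its 3′ than at its 5′ end. In liver it differed by 0.07 (SE 0.07) and was not called.

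**Figure D5:**
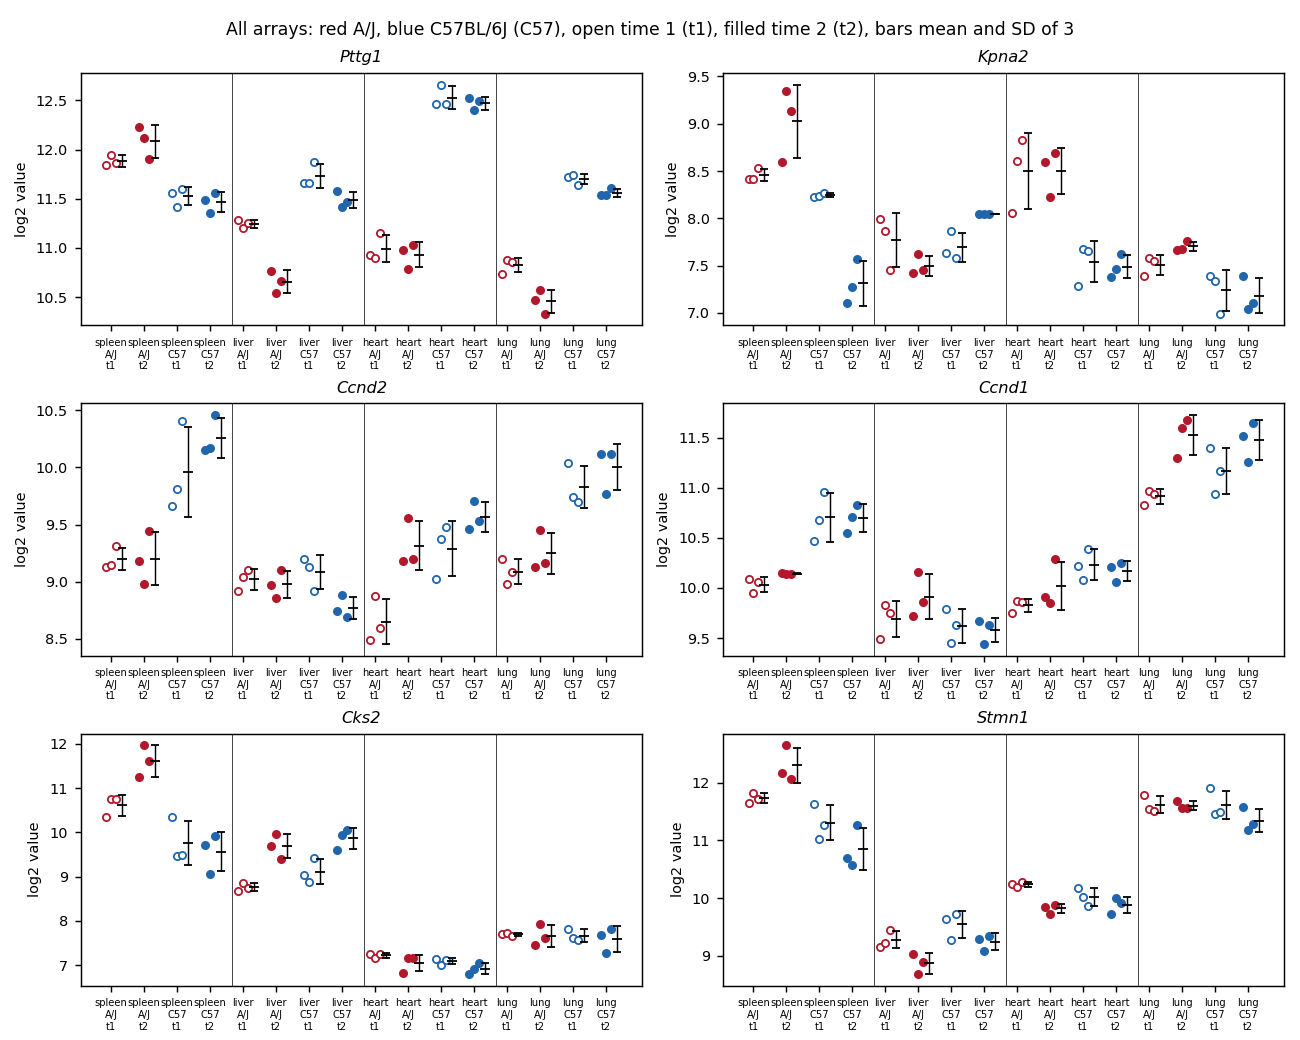
Log2 values of 6 members on all 48 arrays (points; red A/J, blue C57BL/6J; open time 1, filled time 2), with the mean and SD of each group of 3. Pttg1 is higher in A/J than in C57BL/6J in spleen and lower in liver, heart and lung, Kpna2 is higher in A/J in spleen and heart, Ccnd2 is lower in A/J in spleen and lung, and Ccnd1, Cks2 and Stmn1 differ mainly between tissues.

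Time 2 was set against time 1 within each tissue, a comparison in which the array set changes too. In A/J spleens the transcripts of other organs also changed. Alb was 8.62 to 8.83 at time 1 and 11.92 to 13.27 at time 2. The mean of pancreas markers was 9.71 to 13.02 at time 1 and 9.29 to 10.11 at time 2. Their part in the time difference was not tested within A/J. In A/J spleen 16 members were called higher at time 2 and none lower (background 10.4% and 18.6%), with a median of 0.37 against -0.067 over all probe sets. The largest were Rrm2 (1.33, SE 0.29), Cdc6 (1.28, SE 0.28), Cks2 (0.99, SE 0.26), Birc5 (0.95, SE 0.33), Ccna2 (0.90, SE 0.17) and Mcm4 (0.85, SE 0.21). In C57BL/6J spleen none was higher and 5 were lower (background 6.46% and 7.07%), with a median of -0.31: Top2a (-1.30, SE 0.22), Kpna2 (-0.93, SE 0.16), Mad2l1 (-0.76, SE 0.23), Pola1 (-0.75, SE 0.20) and Lig1 (-0.52, SE 0.13). With both strains together, 2 members were higher and 2 lower in spleen (background 13% and 18.9%).

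The other tissues showed small time differences in both directions. In liver 4 members were higher and 11 lower at time 2 (background 20.2% and 30.1%), with Cks2 at 0.84 (SE 0.11) and Mad2l1 at -0.60 (SE 0.08) the farthest out. In heart 7 were higher and 6 lower (background 15.7% and 19.3%), from -0.28 to 0.47, with Ccnd2 at 0.47 (SE 0.11) and Mcm6 at 0.40 (SE 0.05). In lung 6 were higher and 5 lower (background 15.8% and 18.9%), from -0.34 (Tk1, SE 0.07) to 0.46 (Ccnd1, SE 0.10). Aurka was lower at time 2 in liver (-0.28), heart (-0.28) and lung (-0.25). No member was called for strain by time in liver, heart or lung in limma (background 1.01% higher and 3.9% lower in liver, 0.0644% and 0.322% in heart, and 0.105% and 0.0725% in lung), with 6, 1 and 2 members at an unadjusted p below 0.05.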

How the data were processed

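The deposited values are log2 expression, 1 per probe set and array, and were used as deposited. Per the labels, about 20 micrograms of total RNA went into each array. The summary and normalization methods are not given in the sources used here; array medians lie between 8.863 and 9.01. After removal of 66 control probe sets, 12422 were tested with limma 3.58.1 in R 4.3.3 (lmFit, eBayes), with Benjamini-Hochberg adjustment over all of them, a limit of 0.05, no floor and no filter. No member reached the ceiling shared by probe sets on 18 arrays. Strain (A/J minus C57BL/6J) was fitted over the 12 arrays of a tissue with time as a term, time (time 2 minus time 1) with strain as a term, strain by time from the 4 group means, tissues over the 24 arrays of time 2, and strain by tissue over all 48. The fits of tissues and of strain by tissue take 1 spread per gene from all their arrays, although the spleens varied more than the other tissues. Some of the fits were also run on simulated data with known differences. Those data had 1 SD per probe set for all tissues, so they cannot show the effect of the unequal spread. Precision is set by the 3 arrays of a group.

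The 44 members, their roles and the lists of pathway genes, inhibitors and markers were chosen with earlier results of these data known. Named members are the 6 with the largest called difference per direction in a comparison and any called against most of its role group; of the pathway and inhibitor lists, up to 6 per direction with the smallest p in spleen. Gene names come from the platform's annotation. No arrays were duplicates (highest correlation 0.9968). Alternatives were quantile normalization, a filter on the dimmest 25% of probe sets, the mean over probe sets, a replicate block, all 48 arrays in the fit, another eBayes setting and each array left out. Leaving out spleens with transcripts of other organs or hearts with a high Gapdh 3′ to 5′ difference was added after seeing the data.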

Additional observations from a re-analysis of the deposited data

Results flagged for a closer look

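The strain difference of the members differed between spleen and the other tissues, by the strain by tissue test of limma. It called 32 of 41 members with a higher value in spleen and 2 with a lower one, where 7.77% and 8.89% of all probe sets were called. This test takes 1 spread per gene from all tissues, and it could not be fitted without the spleens with Alb. The members with the largest values were Cdc6 (1.66), Rrm2 (1.62), Birc5 (1.56), Pttg1 (1.55), Cks2 (1.48) and Ccnb2 (1.36), and those below 0 were Ccnd1 (-0.55) and Ccnd2 (-0.54).

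The strain difference in spleen also differed between time 2 and time 1 for Kpna2 (1.50) and Ccna2 (1.39), and for Mki67 on probe set 99457_at (2.57). Over all probe sets 0.185% were called in that direction. With 1 array left out at a time, 0 to 10 members were called on their main sets. At time 2 the A/J spleens carried Alb and the array set was another, and neither can be told apart from the time.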

How the results depend on the processing

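For strain in spleen, quantile normalization, the mean over probe sets, all 48 arrays in the fit and another eBayes setting kept the counts of members called within 1.5 times of 30 higher and 2 lower, and leaving out 1 array at a time gave 24 to 31 higher and 2 lower. Without the spleens with pancreas transcripts 8 were higher and without those with Alb 2 were higher, from 7 and 8 arrays. None of the 32 called members changed sign on its main probe set under these alternatives. Of all 41 members, 39 differences were positive with 12 arrays, 36 without the spleens with pancreas transcripts and 38 without those with Alb, and the median was 0.73 and 0.30 in these 2 cases. On other probe sets the difference was -0.02 for Tk1, -0.07 for Bub1, -0.01 for Pttg1 and -0.04 for Stmn1; the cause was not tested. Strain by time in spleen gave 1 member higher under quantile normalization and without the spleens with pancreas transcripts, and 0 to 10 with 1 array left out; it could not be fitted without the spleens with Alb, since no A/J spleen of time 2 remains. Time in spleen gave 5 higher and 6 lower with all 48 arrays in the fit, 1 lower with the other eBayes setting, 0 and 0 without the spleens with pancreas transcripts, 1 and 6 without those with Alb, and 2 to 3 higher and 1 to 5 lower with 1 array left out. In liver, strain gave 2 lower with the other eBayes setting and 1 to 2 with 1 array left out, time gave 7 to 13 lower, and strain by time gave 1 lower without the dimmest probe sets, with the mean over probe sets and with the other eBayes setting, and 0 to 1 in each direction with 1 array left out. In heart, strain gave 1 lower without the hearts with a high Gapdh difference, and time gave 3 lower there and with all 48 arrays. In lung, time gave 3 lower without the dimmest probe sets and 3 to 7 higher with 1 array left out. Spleen minus liver gave 1 lower with both times in the fit, and spleen minus heart 0 lower with the mean over probe sets. The strain by tissue counts of 32 and 2 held with each of the 48 arrays left out, and were 31 and 2 without the spleens with pancreas transcripts. That test could not be fitted without the spleens with Alb either, so its dependence on them is not known.

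No steady pairing of the strains by replicate number was seen, which groups of 3 arrays cannot exclude. Same-numbered A/J and C57BL/6J samples of a tissue and time had deviations from their group means that correlated from -0.577 to 0.363, and 7 of 24 were above 0.1. With the replicate block, 22 members were higher and 2 lower for strain in spleen, 1 was higher for strain by time in spleen, 1 was lower for time in spleen, 2 were lower for strain in liver and 7 were lower for time in liver. It was not run for strain by tissue.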
